A study of Mus musculus with 6 samples.

Results

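Phase II conjugation enzymes join a water-soluble group to drugs, hormones, bile pigments and lipid peroxidation products so that they can leave the cell and be excreted. The members were every row of the liver gene count table that maps, in the GRCm38 annotation, to a protein-coding gene whose symbol starts with Gsta, Gstk, Gstm, Gsto, Gstp, Gstt, Gstz, Mgst, Ugt1a, Ugt2, Ugt3 or Sult. This gave 67 genes of the 54532 gene rows: 25 glutathione transferases, 21 UDP-glucuronosyltransferases and 21 sulfotransferases. Livers came from 3 mice homozygous for the targeted allele of B6.Cg-Cd44tm1Hbg/J (Cd44 KO), which lack Cd44 in every cell type, and from 3 wild-type (WT) mice. Both genotypes were fed a Lieber-DeCarli liquid diet (5% ethanol) for 10 days, were gavaged with ethanol at 5 g/kg on day 11, and were killed after a further 9 hours. The control mice therefore carry the ethanol exposure too, mice without ethanol were not analysed here, and the labels give neither age nor sex. Cd44 encodes a surface receptor for hyaluronan and osteopontin, and the comparison asks how its loss changes the ethanol-exposed liver.

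Glutathione transferases couple the tripeptide glutathione to electrophiles, among them aldehydes from oxidised lipids. UDP-glucuronosyltransferases sit in the endoplasmic reticulum and transfer glucuronic acid to bilirubin, steroids and phenols. Sulfotransferases are cytosolic and use the donor PAPS to sulfate phenols, catecholamines, steroids and bile acids. The hepatocyte is the main site of each class, and several of the genes are regulated by the receptors AHR, CAR and PXR, by NRF2, and by sex.

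Gene counts came to 15429784, 19293777 and 15848616 in Cd44 KO mice 1, 2 and 3 and to 18006959, 16083334 and 17892549 in WT mice 1, 2 and 3. Cd44 had 1, 0 and 0 counts in the Cd44 KO libraries, against 590, 175 and 568 counts in the WT libraries, so each library went with its label. Levels are given as CPM (counts over the library total after TMM scaling) when a gene is compared between mice, and as TPM (counts divided by exon length and then scaled to a common total per library) when genes are compared with each other. Fold changes are log2 values with their standard error, and a positive one means a higher level in Cd44 KO livers. With 3 mice per genotype an exact permutation test of 1 value cannot go below p = 0.1, so the p-values are from edgeR's model over all genes.

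WT 3 stood apart from the other WT mice for these enzymes. It had the lowest CPM of the 6 mice for 26 of the 51 members that could be tested (51.0%), against 23.8% of all tested genes. The share was 13 of 16 among glucuronosyltransferases (81.2%) and 10 of 13 among sulfotransferases (76.9%). Among glutathione transferases it was 3 of 22 (13.6%), and WT 3 was instead the highest of the 6 mice for 9 of them (40.9%), against 23.6% of all tested genes. WT 3 also had 1528 CPM of the acute-phase gene Lcn2, against 165.9 and 107 CPM in WT 1 and WT 2 and 61.6 to 189 CPM in Cd44 KO livers. Other acute-phase genes did not follow it: Saa1 and Saa2 had 37.8 and 16.4 CPM in WT 3, against 133.8 and 93.1 CPM in WT 1. These 3 genes were chosen after their values were seen.

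No conjugation enzyme passed an adjusted p of 0.05 in edgeR. Of the 67 members, 51 had enough counts to be tested: 22 glutathione transferases, 16 glucuronosyltransferases and 13 sulfotransferases. The background was equally sparse, with 2 of 14145 genes (0.0141%) past that threshold, and the smallest adjusted p among the members was 0.217. At an unadjusted p under 0.05 in edgeR, 4 members were lower and 0 higher in Cd44 KO livers. That is 7.84% of the tested members, against 12.8% of all tested genes (7.59% lower and 5.22% higher). The genotypes did not overlap for 5 members, or 9.80%, against 18.2% of all genes; 3 were lower in Cd44 KO livers, where the share over all genes was 9.42%, and 2 were higher, where it was 8.81%. Counted in either direction, the share of members was below that of all genes by both measures. Lower calls alone were near it, at 7.84% of members against 7.59% of all genes. The 4 lower members were all glutathione transferases, 18.2% of the 22 tested. DESeq2 called 2 members, Gstp2 and Gsta4, at an adjusted p of 0.05, which is 3.92% of the 51 members it gave an adjusted p, against 1.96% of all genes.

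Sizes of change were also near those of other genes. The mean was lower in Cd44 KO livers for 22 tested members and higher for 29, and the median log2 fold change was 0.11, against −0.01 over all genes. Without WT 3 the median of the members was −0.08, against −0.01 over all genes, so its direction rests on WT 3. A change under 2-fold was estimated for 49 of the 51 members (96.1%), against 94.9% of all genes. The median standard error of a member was 0.25 on the log2 scale, which sets how small a difference these libraries could resolve.

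**Figure D1:**
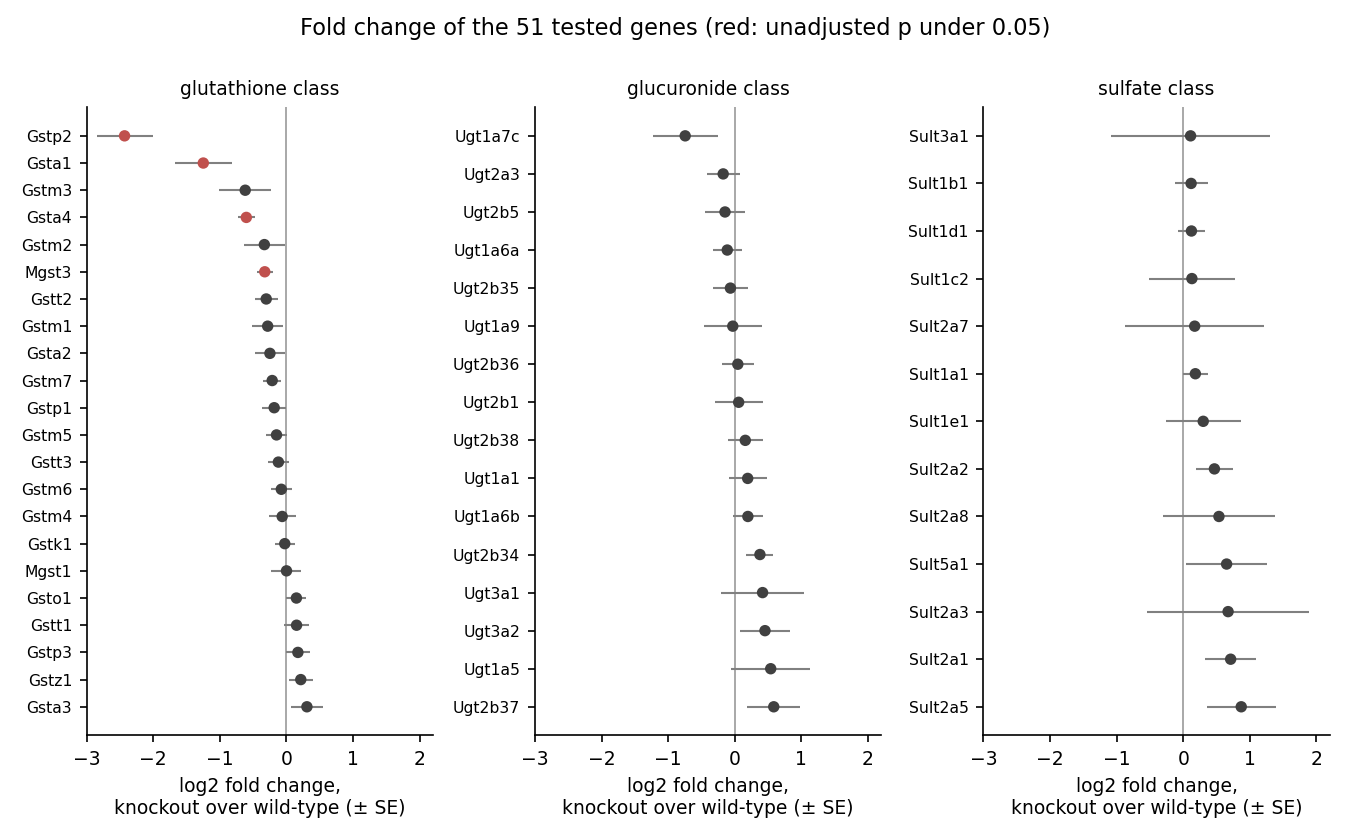
Log2 fold change (Cd44 KO over WT, edgeR) of the 51 tested members, grouped by class and ordered within it, with bars of 1 standard error and red points for an unadjusted edgeR p under 0.05. Gstp2 lies at −2.43, the 13 sulfotransferases lie right of 0, and 16 of the 22 glutathione transferases lie left of it.

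The 3 classes split differently into lower and higher means. Among glutathione transferases the mean was lower in Cd44 KO livers for 16 genes and higher for 6, with a median log2 fold change of −0.17, or −0.10 without WT 3. Among glucuronosyltransferases 6 were lower and 10 higher, with a median of 0.11 that became −0.12 without WT 3 and 0.35 without WT 2. Among sulfotransferases 0 were lower and 13 higher, with a median of 0.30, which was 0.12 without WT 3 and 1.03 without WT 2. The 51 fold changes are not independent, since members share mice and in part reads, and the difference between classes was not tested.

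Glutathione transferases made up most of the conjugation transcripts in every mouse. Their summed level was 13565, 11802 and 9128 TPM in Cd44 KO mice 1, 2 and 3, against 12825, 13789 and 15193 TPM in WT mice 1, 2 and 3. The 2 genotypes overlapped, because Cd44 KO 1 lay above WT 1, and the log2 ratio of the means was −0.28 (−0.41 to −0.14 with any 1 mouse left out). It was −0.13 when CPM were summed in place of TPM. Glucuronosyltransferases summed to 2871, 2480 and 2415 TPM in Cd44 KO livers, against 2684, 3239 and 1682 TPM in WT livers. The WT mice spanned a wider range than the Cd44 KO mice and enclosed them, and the log2 ratio of 0.03 ran from −0.19 without WT 3 to 0.25 without WT 2. Dividing by exon bases free of other genes, where enough remained, gave 3951, 3564 and 3485 TPM in Cd44 KO livers. The WT livers then had 3834, 4513 and 2235 TPM, and the log2 ratio was 0.06.

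Sulfotransferases summed to 3336, 3460 and 3519 TPM in Cd44 KO livers, against 3148, 2884 and 2411 TPM in WT livers. Here every Cd44 KO mouse lay above every WT mouse, with a log2 ratio of 0.29 that was 0.19 without WT 3. A single value that separates 3 mice from 3 has the smallest p that an exact permutation test allows, 0.1, and no p is given for a sum over chosen genes. The ratio of summed glutathione to summed sulfotransferase TPM was 4.07, 3.41 and 2.59 in Cd44 KO livers and 4.07, 4.78 and 6.30 in WT livers. Cd44 KO 1 and WT 1 had the same ratio to 3 digits, and the other mice parted. The ratio of glutathione to glucuronosyltransferase TPM was 4.73, 4.76 and 3.78 in Cd44 KO livers and 4.78, 4.26 and 9.03 in WT livers, with WT 3 alone far from the rest. The size of this ratio also depends on how exons shared by the Ugt1a genes are counted.

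**Figure D2:**
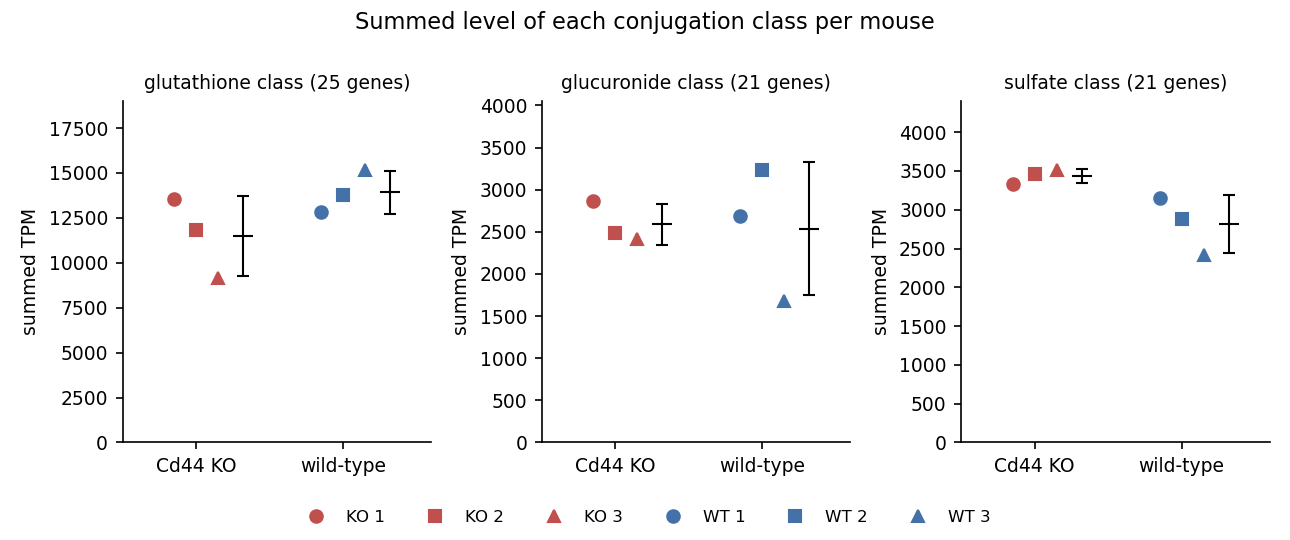
Summed TPM of each class in each mouse (points, Cd44 KO left, WT right), with the mean and SD of 3 mice. Only the sulfotransferase sums separate the genotypes, at 3336 to 3519 TPM in Cd44 KO livers and 2411 to 3148 TPM in WT livers.

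Each class rested on a few abundant genes. Gstm1, a mu-class transferase, averaged 5551 TPM over the 6 mice and held 43.6% of the glutathione class, followed by the membrane-bound Mgst1 at 15.1%, Gstm3 at 10.8% and Gstp1 at 7.49%. By TPM over all exon bases the glucuronosyltransferases were more even, with Ugt2b5 at 18.0%, Ugt2b36 at 17.6%, Ugt2b34 at 12.9% and Ugt3a2 at 10.2%. The Ugt1a genes share later exons with each other, so their place in this ranking is uncertain. Sult1a1, which sulfates phenols, held 42.4% of the sulfate class, and the hydroxysteroid enzymes Sult2a2 and Sult2a1 held 26.9% and 17.8%.

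**Figure D3:**
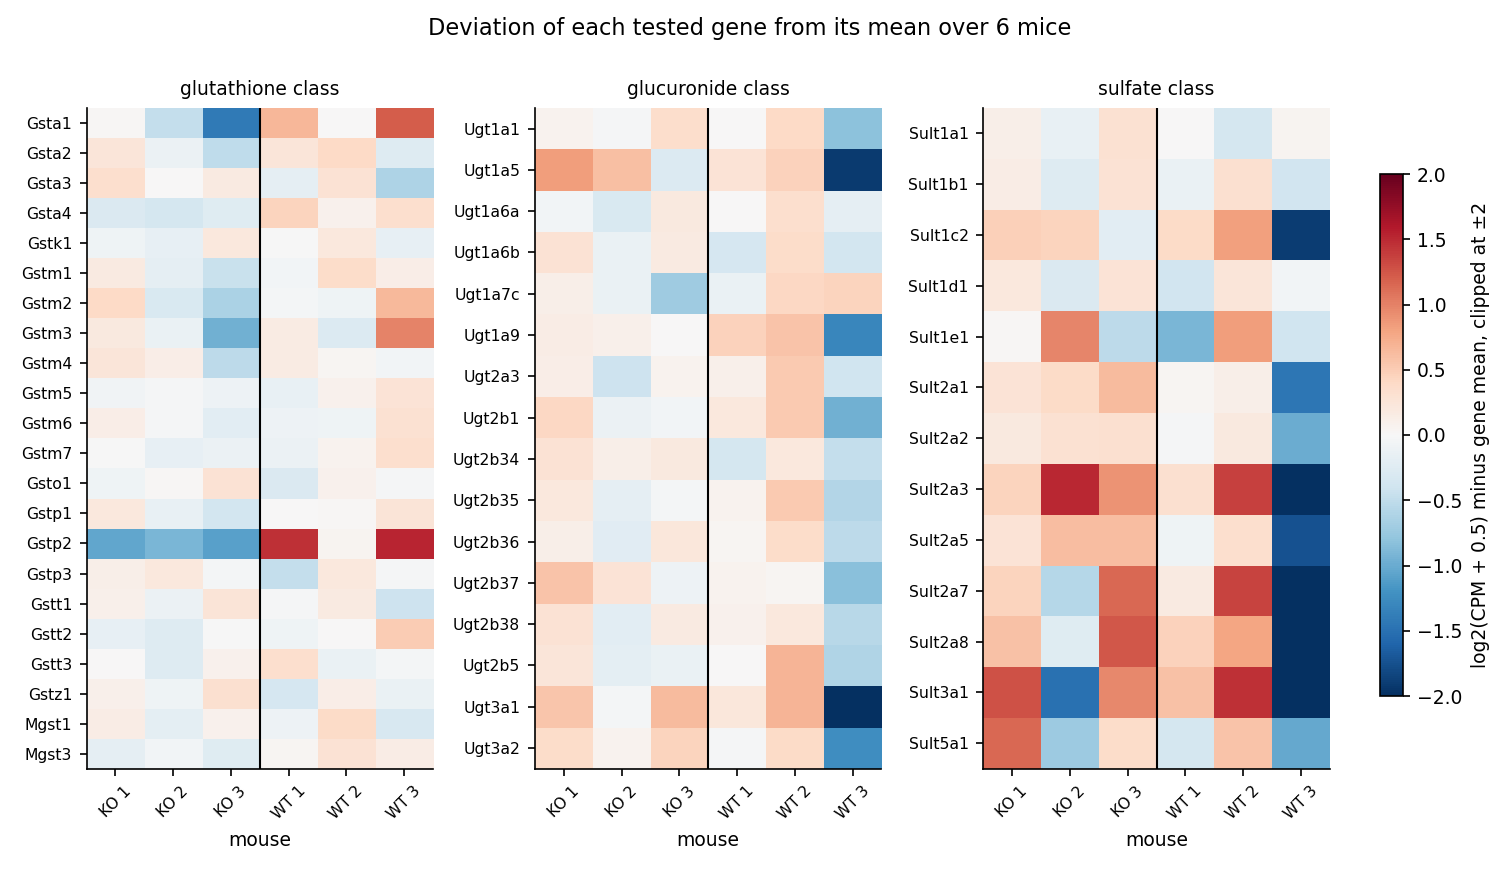
Log2 CPM of each tested member relative to its mean over the 6 mice, with members in rows by class and mice in columns (Cd44 KO left, WT right). The WT 3 column is low across most glucuronosyltransferases and sulfotransferases, being lowest for 13 of 16 and 10 of 13.

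Gstp2 had the lowest unadjusted p among the members. The pi class conjugates small electrophiles, and the mouse genome carries Gstp2 (ENSMUSG00000038155; GRCm38, chr19:4040285-4046023) and Gstp1 (ENSMUSG00000060803; chr19:4035407-4037985) side by side on the minus strand. Their coding sequences are both 630 bases long and identical at 618 positions (98.1%), and the first 90 bases show how few bases separate reads of the 2 genes. Capitals mark the 6 positions that differ, in sequence from GENCODE M21 on GRCm38.
Gstp2: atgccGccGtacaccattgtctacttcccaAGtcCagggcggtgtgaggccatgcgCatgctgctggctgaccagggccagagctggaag
Gstp1: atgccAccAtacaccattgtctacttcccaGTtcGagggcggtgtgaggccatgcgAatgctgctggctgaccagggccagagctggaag

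Gstp2 had 1.79, 2.00 and 1.71 CPM in Cd44 KO livers, against 12.4, 4.37 and 13.0 CPM in WT livers. Every Cd44 KO mouse lay below every WT mouse, and WT 2 lay nearer to the Cd44 KO mice than WT 1 and WT 3 did. The counts behind these values were 27, 40 and 25 in Cd44 KO libraries and 228, 67 and 255 in WT libraries. The log2 fold change was −2.43 ± 0.42, with an edgeR p of 0.000447 and an adjusted p of 0.217. DESeq2 gave an adjusted p of 1.54e-05, and edgeR one of 0.00653 without WT 2 and between that and 0.698 over the 6 fits that left out 1 mouse. The log2 fold change stayed between −2.77 and −2.20 in those fits. Gstp1, the abundant copy, had 650.2, 512 and 439 CPM in Cd44 KO livers, against 567, 577 and 675 CPM in WT livers, a log2 fold change of −0.18 ± 0.18 (edgeR adjusted p = 0.747). Its genotypes overlapped, with Cd44 KO 1 second only to WT 3. Of all 100-base windows of Gstp2 transcripts, 46.9% also occur in transcripts of other genes, Gstp1 and the pseudogene Gstp-ps among them, so the Gstp2 counts are uncertain. Gstp3, whose coding sequence is 74.4% identical to that of Gstp2, had 29.2 to 35.0 CPM in Cd44 KO livers and 21.5 to 34.9 CPM in WT livers.

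The upstream regions of the pair are shown because the 2 neighbours, so alike in coding sequence, averaged 14.2 TPM (Gstp2) and 953 TPM (Gstp1) over the 6 mice. Each is 300 bases in RefSeq's GRCm38.p6, from 250 bases before the start site to 50 after it, on the minus strand. Gstp2 spans chr19:4042172-4042471 and Gstp1 chr19:4037863-4038162. Capitals mark a match to the AP-1 motif TGANTCA, which starts at −89 in Gstp2 and at −74 in Gstp1.
Gstp2: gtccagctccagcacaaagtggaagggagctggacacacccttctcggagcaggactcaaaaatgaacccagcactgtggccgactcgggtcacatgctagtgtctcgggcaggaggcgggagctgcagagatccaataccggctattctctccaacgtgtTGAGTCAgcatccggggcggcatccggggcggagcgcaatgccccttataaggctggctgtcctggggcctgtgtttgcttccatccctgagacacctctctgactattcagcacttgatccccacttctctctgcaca
Gstp1: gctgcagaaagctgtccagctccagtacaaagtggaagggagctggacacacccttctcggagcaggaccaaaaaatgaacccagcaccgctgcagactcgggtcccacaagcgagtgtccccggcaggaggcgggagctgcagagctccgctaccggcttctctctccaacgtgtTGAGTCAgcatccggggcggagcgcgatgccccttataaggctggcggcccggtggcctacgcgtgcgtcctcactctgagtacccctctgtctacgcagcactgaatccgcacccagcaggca

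The 2 promoters aligned over 282 bases, of which 243 were identical (86.2%). Both strands of every promoter in the RefSeq table were searched for 3 motifs. The AP-1 motif occurred in 11 of the 59 member promoters in the table (18.6%) and in 7.93% of all 27025. TGACNNNGC, the core of the antioxidant response element, occurred in 3 (5.08%) and in 12.5% of all, and GCGTG, the core of the xenobiotic response element, in 11 (18.6%) and in 32.5% of all. TGACNNNGC and GCGTG may overlap each other or the AP-1 motif, and neither Gstp promoter held TGACNNNGC. The Gstp1 promoter held 1 match to GCGTG and the Gstp2 promoter held 0. A match is a run of letters and not a measured binding site.

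Gsta4 (ENSMUSG00000032348; chr9:78182774-78209349, plus strand), the alpha-class enzyme known for conjugating the lipid peroxidation product 4-hydroxynonenal, was the other member with a DESeq2 call. It had 52.1, 50.1 and 53.6 CPM in Cd44 KO livers, against 87.5, 67.9 and 81.1 CPM in WT livers. The Cd44 KO mice lay close together and all below the WT mice. The log2 fold change was −0.60 ± 0.13, with an edgeR p of 0.00137, an edgeR adjusted p of 0.217 and a DESeq2 adjusted p of 0.0225. Without WT 2 the edgeR adjusted p was 0.0498, and it reached up to 0.698 with another mouse left out, while the log2 fold change stayed between −0.69 and −0.52. No 100-base window of Gsta4 occurs in another gene, so its counts are not shared.

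Gsta1 and Mgst3 were the other members with an edgeR p under 0.05. Gsta1 (ENSMUSG00000074183; chr9:78230656-78242684, plus strand), an alpha-class enzyme with peroxidase activity, had 19.5, 13.6 and 6.92 CPM in Cd44 KO livers, against 30.7, 19.3 and 44.9 CPM in WT livers. The genotypes touched, with Cd44 KO 1 just above WT 2, and the log2 fold change was −1.25 ± 0.42 (edgeR adjusted p = 0.301). Its coding sequence shares 653 of 666 aligned bases with Gsta2 (98.0%), and 80.6% of its 100-base windows occur in other genes, so its counts are uncertain. Gsta2 had 75.5, 58.9 and 44.7 CPM in Cd44 KO livers and 75.3, 84.5 and 53.1 CPM in WT livers, with overlapping genotypes and a log2 fold change of −0.25 ± 0.23. Mgst3 (ENSMUSG00000026688; chr1:167371966-167393841, minus strand), a microsomal enzyme that can form leukotriene C4, had 37.6, 41.3 and 36.1 CPM in Cd44 KO livers, against 44.3, 52.5 and 47.4 CPM in WT livers. Its genotypes did not overlap, and the log2 fold change was −0.33 ± 0.12 (edgeR adjusted p = 0.314).

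**Figure D4:**
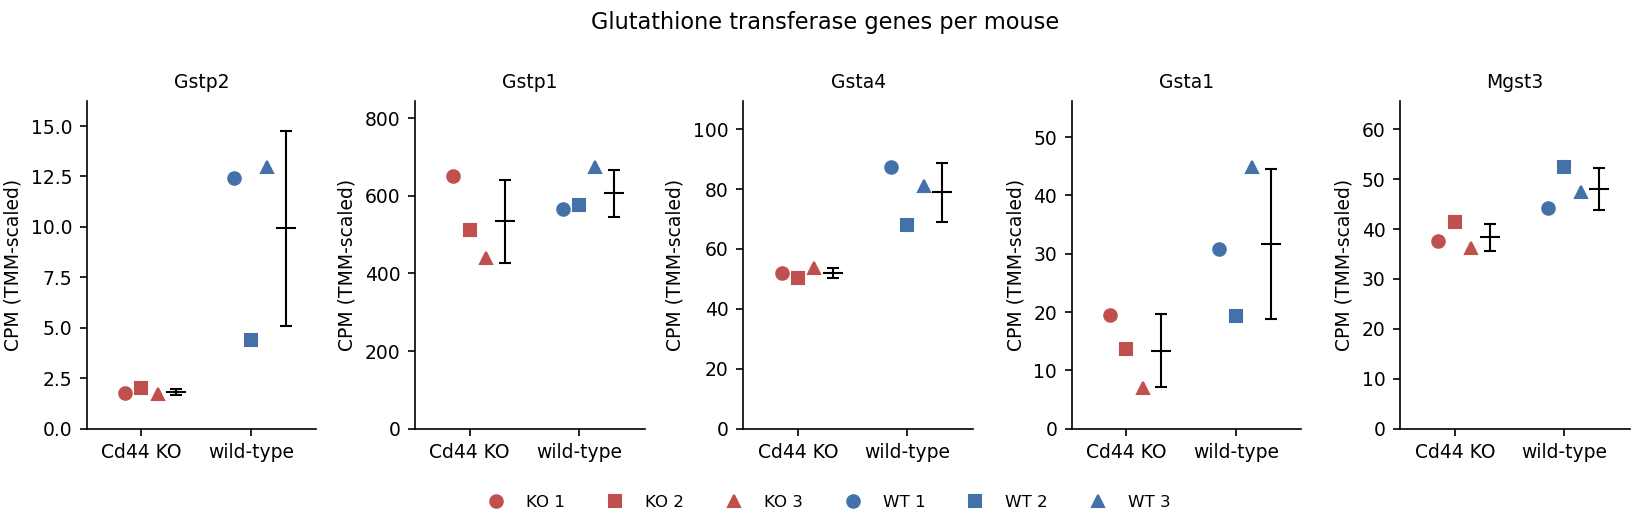
CPM in each mouse (points, Cd44 KO left, WT right) of single glutathione transferases, with the mean and SD of 3 mice. Gstp2, Gsta4 and Mgst3 separate the genotypes, while Gstp1 overlaps and Gsta1 touches.

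These values were measured in whole liver, where fewer cells of a type and less RNA per cell cannot be told apart. Macrophage markers had lower means in Cd44 KO livers for 10 of 10 listed genes, 9 of them at an edgeR p under 0.05, with summed levels of 281 to 311 CPM in Cd44 KO livers and 349 to 948 CPM in WT livers. Among the WT mice this sum was 948 CPM in WT 1, 349 in WT 2 and 796 in WT 3. Of the WT mice, WT 2 had the lowest Gstp2, Gsta4 and Gsta1 and the highest Mgst3. Cholangiocyte markers had lower means for 7 of 8 tested genes, at 46.1 to 55.5 CPM in Cd44 KO livers and 65.4 to 81.2 CPM in WT livers, and Spp1 made up 52.7% of that sum. Hepatocyte markers overlapped, at 95488 to 118554 CPM in Cd44 KO livers and 92065 to 106645 CPM in WT livers, with Alb at 74.7% of the sum. Neutrophil markers had 3.15 to 7.10 CPM in Cd44 KO livers and 6.53 to 9.58 CPM in WT livers. Stellate cell markers had 391 to 515 CPM in Cd44 KO livers and 444 to 687 CPM in WT livers. Endothelial markers had 237 to 328 CPM in Cd44 KO livers and 218 to 448 CPM in WT livers, and lymphocyte markers had 2.39 to 11.9 CPM in Cd44 KO livers and 3.82 to 15.9 CPM in WT livers. Means were lower for 4 of 4 tested neutrophil genes, 8 of 9 stellate, 5 of 8 endothelial, 2 of 5 tested lymphocyte and 3 of 10 hepatocyte genes. At an edgeR p under 0.05, 2 neutrophil, 3 stellate, 1 endothelial, 0 lymphocyte, 1 hepatocyte and 1 cholangiocyte genes were lower. Over all tested genes, 7.59% were lower at that p, so a single call in a list of this size says little. Markers of small intestine and pancreas, 96.3% of them Apoa4, which liver also makes, had 1669 to 2146 CPM in Cd44 KO livers and 1697 to 3501 CPM in WT livers, with Alpi at 0 counts in each library. The part of cell makeup in the values of Gstp2, Gsta4, Gsta1 and Mgst3 was not tested.

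The abundant glutathione transferases overlapped between genotypes. Gstm1 had 3532, 2770 and 2289 CPM in Cd44 KO livers, against 3008, 4006 and 3430 CPM in WT livers, a log2 fold change of −0.28 ± 0.23. Gstm3 had 723, 574 and 325 CPM in Cd44 KO livers, against 711, 524 and 1255 CPM in WT livers. WT 3 was far above the other mice for Gstm3, and the log2 fold change of −0.62 ± 0.39 became −0.19 without it. Of its 100-base windows 13.8% occur in other genes, Gstm1 and Gstm6 among them. The mean of each of the 7 Gstm genes was lower in Cd44 KO livers, with a median log2 fold change of −0.21 (−0.08 without WT 3), and 0 of the 7 had an edgeR p under 0.05. Mgst1, a membrane-bound enzyme with peroxidase activity, had 1651, 1311 and 1592 CPM in Cd44 KO livers and 1399, 1959 and 1193 CPM in WT livers, and the fitted log2 difference was 0.00 ± 0.23.

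The remaining glutathione transferases gave small differences. Gstm2, Gstm4, Gstm5, Gstm6 and Gstm7 had log2 fold changes of −0.33 to −0.06, Gstt2 one of −0.30 and Gstt3 one of −0.12. Gsta3, the most abundant alpha-class gene per length, had 1359, 1088 and 1228 CPM in Cd44 KO livers and 950.9, 1317 and 702 CPM in WT livers. Gstk1, the kappa-class enzyme of mitochondria and peroxisomes, had 64.8 to 84.8 CPM in Cd44 KO livers and 65.1 to 84.5 CPM in WT livers. Gsto1, an omega-class thiol transferase, had 89.7 to 117 CPM in Cd44 KO livers and 77.8 to 101 CPM in WT livers. Gstt1, a theta-class enzyme that acts on small halogenated compounds, had 256 to 333 CPM in Cd44 KO livers and 208 to 316 CPM in WT livers. Gstz1, the maleylacetoacetate isomerase of tyrosine breakdown, had 435 to 573 CPM in Cd44 KO livers and 366 to 507 CPM in WT livers. In Gsta3, Gstk1, Gsto1, Gstt1 and Gstz1 the genotypes overlapped, and the log2 fold changes ran from −0.03 for Gstk1 to 0.31 for Gsta3.

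No glucuronosyltransferase had an edgeR p under 0.05, and none separated the genotypes. The 9 Ugt1a genes lie in 1 locus on chromosome 1, where alternative first exons are joined to the same set of later exons. Between 50.4% and 70.9% of the 100-base windows of a tested Ugt1a gene occur in another gene, so reads from the common exons cannot be assigned to 1 enzyme. Ugt1a1, the bilirubin transferase, had 148, 138 and 180 CPM in Cd44 KO livers, against 142, 186 and 79.4 CPM in WT livers, a log2 fold change of 0.19 ± 0.29. Ugt1a9, which acts on phenols, had 151, 146 and 137 CPM in Cd44 KO livers, against 188, 201 and 54.4 CPM in WT livers. The 3 Cd44 KO mice lay together between WT 3 below and the other WT mice above. Ugt1a6a, an enzyme of planar phenols, had 6.96 to 10.1 CPM in Cd44 KO livers and 7.64 to 11.2 CPM in WT livers. Ugt1a5 had 64.5, 54.8 and 29.7 CPM in Cd44 KO livers, against 43.6, 49.9 and 9.22 CPM in WT livers, a log2 fold change of 0.54 ± 0.60. The other tested genes of the locus, Ugt1a6b and Ugt1a7c, had log2 fold changes of 0.20 and −0.75, the second at under 2 CPM in each library.

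The Ugt2b genes lie in a cluster on chromosome 5 and conjugate steroids, bile acids and drugs. Ugt2b5 had 381, 282 and 294 CPM in Cd44 KO livers, against 327, 519 and 214 CPM in WT livers, a log2 fold change of −0.15 ± 0.31. WT 2 was the highest and WT 3 the lowest of the 6 mice, and 24.7% of the 100-base windows of Ugt2b5 occur in Ugt2b37 or Ugt2b38. Ugt2b34 had 676, 595 and 633 CPM in Cd44 KO livers, against 432, 638 and 396 CPM in WT livers, and its log2 fold change of 0.38 ± 0.20 had the smallest p of the class (edgeR adjusted p = 0.497). It is named after its values were seen, as are Ugt1a5 and Ugt3a1. Ugt2b1, Ugt2b35, Ugt2b36, Ugt2b37 and Ugt2b38 had log2 fold changes of −0.07 to 0.58. Ugt2a3 had 98.1 to 144 CPM in Cd44 KO livers and 99.6 to 188 CPM in WT livers. Ugt3a2, whose human counterpart transfers other sugars than glucuronic acid, had 390, 316 and 409 CPM in Cd44 KO livers, against 296, 393 and 127 CPM in WT livers. Its log2 fold change was 0.45 ± 0.37 and became 0.11 without WT 3. Its neighbour Ugt3a1 had 15.7 to 25.4 CPM in Cd44 KO livers, against 3.57 to 26.3 CPM in WT livers, the lowest in WT 3. WT 2 had the highest level of the 6 mice for 10 of the 16 tested glucuronosyltransferases, so the 2 ends of the range both lay within WT.

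The sulfotransferases with separated genotypes were Sult2a1 (ENSMUSG00000078798; chr7:13796246-13837409, minus strand) and Sult2a2 (ENSMUSG00000070811; chr7:13733505-13779636, plus strand), hydroxysteroid enzymes that also sulfate bile acids. Sult2a1 had 247, 268 and 319 CPM in Cd44 KO livers, against 211, 223 and 75.4 CPM in WT livers. The gap between the lowest Cd44 KO mouse and the highest WT mouse was small, and WT 3 lay far below both. The log2 fold change was 0.71 ± 0.38 (edgeR adjusted p = 0.497) and became 0.36 without WT 3. Sult2a2 had 269.9, 291 and 293 CPM in Cd44 KO livers, against 231, 268 and 117 CPM in WT livers, a log2 fold change of 0.47 ± 0.28 (edgeR adjusted p = 0.541) that became 0.19 without WT 3. Of its 100-base windows 34.6% occur in another gene, and 11.4% of those of Sult2a1 do. Each of the 6 tested Sult2 genes had a higher mean in Cd44 KO livers, with a median log2 fold change of 0.61 that became 0.14 without WT 3.

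The smaller Sult2a and Sult3a genes varied most between mice, and WT 3 was the lowest for each of them. Sult2a3 had 21.5, 45.8 and 29.7 CPM in Cd44 KO livers, against 19.7, 41.3 and 0.204 CPM in WT livers, where the WT 3 value is 4 counts. Sult2a8, which sulfates bile acids in the mouse, had 79.3, 44.6 and 125 CPM in Cd44 KO livers, against 73.1, 91.5 and 6.98 CPM in WT livers. Sult3a1, an amine sulfotransferase, had 8.70, 0.852 and 6.86 CPM in Cd44 KO livers, against 5.22, 9.92 and 0.051 CPM in WT livers, where the WT 3 value is 1 count. Cd44 KO 2 was second lowest for both Sult2a8 and Sult3a1. Its 44.6 and 0.852 CPM lay well above the 6.98 and 0.051 CPM of WT 3. For Sult2a3 Cd44 KO 2 was the highest of the mice, so its lower levels did not extend to each of these genes. Sult2a7 was also lowest in WT 3 and next lowest in Cd44 KO 2, with 3.98, 1.70 and 6.79 CPM in Cd44 KO livers against 3.21, 7.90 and 0.051 CPM in WT livers. Sult2a3 and Sult2a7 are named after their values were seen. The standard errors of these 4 genes, 0.84 to 1.21 on the log2 scale, exceeded their fold changes of 0.11 to 0.67.

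**Figure D5:**
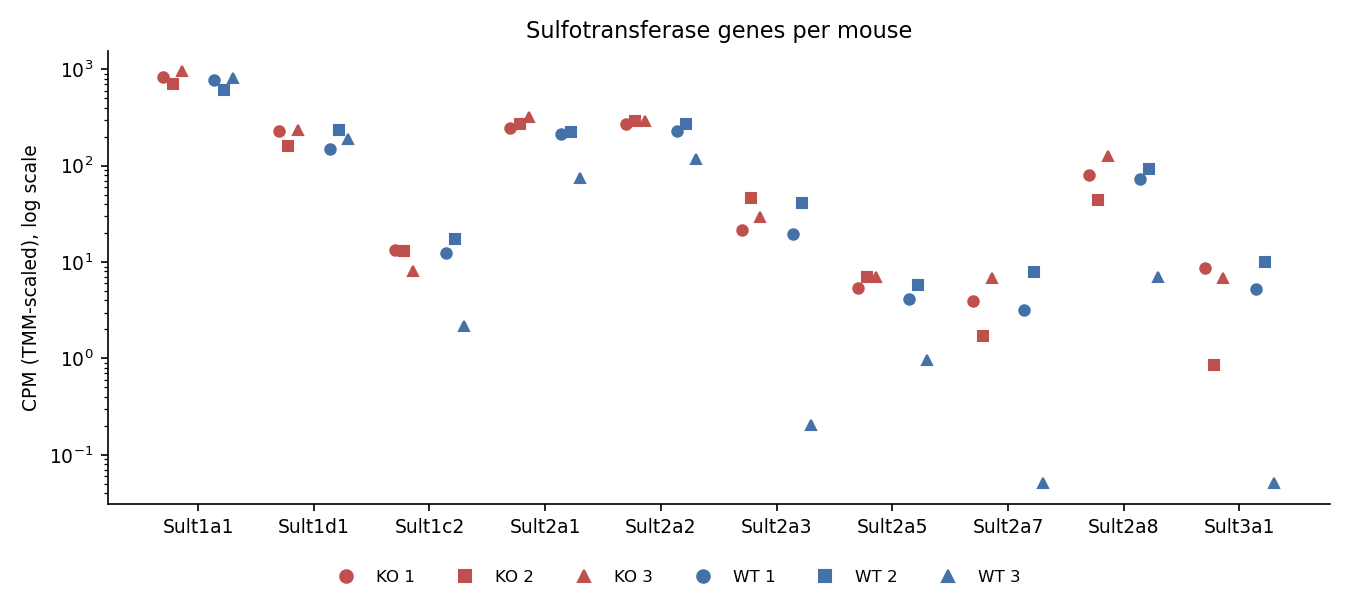
CPM in each mouse on a log10 axis (points, Cd44 KO left, WT right) of sulfotransferases. WT 3 is the lowest point for the Sult2a and Sult3a genes, down to 0.051 CPM for Sult3a1, and Sult1a1 varies little.

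The phenol, catecholamine and oestrogen sulfotransferases were steadier or overlapped. Sult1a1 had 832, 697 and 954 CPM in Cd44 KO livers, against 779, 605 and 804 CPM in WT livers, a log2 fold change of 0.18 ± 0.19 with overlapping genotypes. Sult1d1, which acts on catecholamines in the mouse, had 161 to 236 CPM in Cd44 KO livers and 150.2 to 233 CPM in WT livers, and is named after its values were seen. Sult1e1, the oestrogen sulfotransferase, had 8.83, 17.6 and 5.90 CPM in Cd44 KO livers, against 4.35, 15.9 and 6.42 CPM in WT livers. The second mouse of each genotype was the highest, and the numbers link no mice. Sult1b1 and Sult1c2 had log2 fold changes of 0.12 ± 0.25 and 0.13 ± 0.64, and Sult1c2 was again lowest in WT 3, at 2.19 CPM beside 8.16 to 13.5 CPM in Cd44 KO livers. Sult5a1 had 2.10 to 9.09 CPM in Cd44 KO livers and 1.63 to 5.87 CPM in WT livers.

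The 16 members that were not tested never exceeded 0.979 CPM in a library. Ugt2a1, Ugt2a2, Sult2a6 and Sult1c1 had 0 counts in the 6 libraries, which at 3 counts allows up to 0.155 to 0.194 CPM. This limit may not hold for Ugt2a1 and Ugt2a2, which overlap each other. Only 30 of 2570 and 140 of 2541 of their exon bases are free of other genes. The others were Mgst2, Gsto2, Gstt4, Ugt1a2, Ugt1a8, Ugt1a10, Sult2a4, Sult2b1, Sult3a2, Sult4a1, Sult6b1 and Sult6b2.

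Mouse liver Sult2a and Sult3a genes are known for higher expression in females, so markers of sex were read beside them. Xist, the RNA of the inactive X chromosome, had 553 to 759 CPM in Cd44 KO livers and 443 to 588 CPM in WT livers. The Y-linked genes Ddx3y, Eif2s3y, Kdm5d and Uty had 0 counts in each library. By these markers every library, WT 3 included, had the pattern of a female mouse, and the genotypes did not differ in sex. The cause of the low Sult2a and Sult3a levels in WT 3 was not tested. Of 23 tested sex-biased liver genes, 1 was lower and 2 were higher at an edgeR p under 0.05, with a median log2 fold change of 0.10 that became −0.17 without WT 3. The called share was 13.0%, against 12.8% of all tested genes. Acot3, the lower one, had 22.1, 17.8 and 33.4 CPM in Cd44 KO livers, against 29.5, 47.8 and 36.1 CPM in WT livers, a log2 fold change of −0.63 ± 0.26. The higher ones were Cyp17a1 and Elovl3. Elovl3 had 1.53, 1.05 and 3.63 CPM in Cd44 KO livers, against 0.218, 0.718 and 0 CPM in WT livers. Its log2 fold change was 2.79 ± 0.85 (edgeR adjusted p = 0.258). Cyp2b9, a female-biased cytochrome, had 592, 609 and 723 CPM in Cd44 KO livers, against 480.4, 557 and 224 CPM in WT livers. Its edgeR p was 0.0884. For Cyp2b9 WT 3 was the lowest of the mice, as it was for Cyp17a1 with 142 CPM beside 276 and 281 CPM in the other WT livers and 298 to 417 CPM in Cd44 KO livers. Cyp17a1 makes steroid precursors, and its log2 fold change was 0.65 ± 0.27 (edgeR adjusted p = 0.374).

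The supply of conjugating groups was read in 3 lists of genes, and 0 genes of any list described here passed an adjusted p of 0.05 in edgeR. Of 18 tested genes that make, recycle or break down glutathione, 2 were lower and 1 higher in Cd44 KO livers at an edgeR p under 0.05. These calls were 16.7% of the list, against 12.8% of all tested genes. The median log2 fold change was −0.30, or −0.17 without WT 3. Gsr, glutathione reductase, had 113, 94.4 and 93.4 CPM in Cd44 KO livers, against 159.6, 126 and 112 CPM in WT livers, a log2 fold change of −0.40 ± 0.16 (edgeR adjusted p = 0.358). Slc7a11, the cystine transporter, had 0.343 to 0.664 CPM in Cd44 KO livers and 0.761, 0.979 and 6.11 CPM in WT livers, so its log2 fold change of −2.39 ± 0.92 became −0.77 without WT 3. Anpep, an aminopeptidase that cleaves glutathione-derived dipeptides, had 171 to 176 CPM in Cd44 KO livers and 121 to 147 CPM in WT livers, a log2 fold change of 0.34 ± 0.12 (edgeR adjusted p = 0.308).

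Of 10 genes for UDP-glucuronic acid and its removal, 1 was lower and 1 higher at that p, with a median of −0.10. Gusb, the lysosomal glucuronidase, had 46.6 to 54.7 CPM in Cd44 KO livers and 56.1 to 79.2 CPM in WT livers, a log2 fold change of −0.40 ± 0.15. Of 15 tested genes for sulfate and its donor, 1 was lower and 1 higher, or 13.3%, near the share of all tested genes. The median was 0.00 to 2 digits. Csad, which makes hypotaurine from cysteine sulfinate, had 135, 102 and 134 CPM in Cd44 KO livers, against 53.2, 81.3 and 76.3 CPM in WT livers. Its genotypes did not overlap, and the log2 fold change of 0.82 ± 0.19 had an edgeR adjusted p of 0.217 and a DESeq2 adjusted p of 0.0155. The lower call was Slc26a2, with overlapping genotypes. It had 5.62 to 8.30 CPM in Cd44 KO livers and 8.03 to 10.9 CPM in WT livers, a log2 fold change of −0.50 ± 0.21. Papss1, which makes PAPS, was not among the calls. It had 8.50 to 12.4 CPM in Cd44 KO livers and 13.1 to 14.2 CPM in WT livers, a log2 fold change of −0.38 ± 0.17.

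Other phase II enzymes and the pumps that export conjugates were read in 2 further lists. At an edgeR p under 0.05 the called share was 22.7% and 13.3%, against 12.8% of all tested genes. Of 22 other transferases and related enzymes, 3 were lower and 2 higher at an edgeR p under 0.05. Nqo1, a quinone reductase induced by NRF2, had 28.3, 23.8 and 24.3 CPM in Cd44 KO livers, against 35.2, 45.6 and 32.7 CPM in WT livers, a log2 fold change of −0.57 ± 0.16 (edgeR adjusted p = 0.231). Hpgds, the haematopoietic prostaglandin D synthase and a sigma-class glutathione transferase that the symbol rule leaves out, had 1.17 to 1.86 CPM in Cd44 KO livers and 3.20 to 5.25 CPM in WT livers, a log2 fold change of −1.28 ± 0.33. Of 15 efflux and uptake transporters, 2 were lower and 0 higher. Abcc1, a pump for glutathione conjugates, had 2.46, 2.96 and 2.06 CPM in Cd44 KO livers, against 6.53, 5.94 and 4.64 CPM in WT livers, a log2 fold change of −1.18 ± 0.25 (edgeR adjusted p = 0.217, DESeq2 adjusted p = 0.0211). Abcc2, the canalicular pump for conjugates and far more abundant in CPM, had 786, 812 and 694 CPM in Cd44 KO livers, against 848, 959.7 and 935 CPM in WT livers, with no overlap and a log2 fold change of −0.26 ± 0.15. Abcc2 was not among the calls, and the other lower call was Abcc5. The macrophage marker sums given above were also lower in Cd44 KO livers than in WT livers. In WT 1, WT 2 and WT 3, Hpgds had 3.21, 3.20 and 5.25 CPM. The part of macrophages in these values was not tested.

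Regulators of the enzymes had a higher mean in Cd44 KO livers for 18 genes and a lower one for 6. Of these 24 tested genes, 0 were lower and 3 higher at an edgeR p under 0.05, with a median log2 fold change of 0.20, or 0.09 without WT 3. Those 3 were 12.5% of the list, against 12.8% of all tested genes called in either direction. Ahr, the receptor for dioxin-like compounds, had 81.6, 59.8 and 70.3 CPM in Cd44 KO livers, against 53.2, 47.5 and 50.4 CPM in WT livers, a log2 fold change of 0.49 ± 0.14 (edgeR adjusted p = 0.237). Esr1, the oestrogen receptor, had 40.2 to 56.0 CPM in Cd44 KO livers and 30.7 to 33.7 CPM in WT livers, a log2 fold change of 0.49 ± 0.15. Nfe2l2, which encodes NRF2, had 77.5, 111 and 102 CPM in Cd44 KO livers, against 109, 89.5 and 89.8 CPM in WT livers, a log2 fold change of 0.01 ± 0.16. Of 23 target genes of AHR, CAR, PXR and NRF2, 4 were lower and 1 higher, with a median of −0.10 (−0.30 without WT 3). Together these calls were 21.7% of the list. Besides Nqo1 and Slc7a11, the lower ones were G6pdx, which supplies NADPH, and the carbonyl reductase Cbr3. G6pdx had 5.84 to 6.86 CPM in Cd44 KO livers and 7.44 to 11.9 CPM in WT livers, and Cbr3 had 4.11 to 11.2 CPM in Cd44 KO livers and 11.4 to 19.4 CPM in WT livers.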

How the data were processed

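Poly(A) RNA from liver was sequenced as 1 library per mouse; the genotype in the labels set the groups. The authors deposited raw read counts per gene, without normalisation. Per the submitters' processing notes, the build was GRCm38.p6 and the tools included featureCounts 1.5.0-p3, HISAT2 2.0.5 and StringTie 1.3.3b. How strand and multi-mapping reads were handled is not given in the sources used here, so counts of near-identical copies and of overlapping genes are uncertain. Of 54682 rows, 150 unnamed gene models, with 0.273% to 0.509% of a library's counts, were left out. Symbols and exon lengths came from GENCODE M21, matched for 54495 rows. Library totals ran from 15493009 to 19346623 counts; 3 counts, the limit for a count of 0, correspond to 0.155 to 0.194 CPM, which covers counting error only.

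The tests used edgeR 4.0.16 under R 4.3.3 (filterByExpr, TMM, robust quasi-likelihood F test, Benjamini-Hochberg adjustment over 14145 genes), with DESeq2 1.42.0 and limma 3.58.1 (voom) as alternatives, beside RLE scaling, other low-count filters, mouse number as a block and leaving out each mouse. The edgeR script was tested on simulated data. The standard error is the fold change over the square root of F. TPM were computed from counts over all exon bases unless stated. Named members are those with an edgeR p under 0.05, the most abundant of each symbol group and a set of well-known enzymes; from each list, up to 4 genes of smallest p, of which some are not reported here. The members and lists were chosen with earlier results of these data known.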

Additional observations from a re-analysis of the deposited data

How the results depend on the processing

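With 3 mice per genotype and a median standard error of 0.25 (log2), differences of that size or smaller were not resolved for a typical member. The class medians and summed class ratios moved by less than the spread between mice under the alternatives run, although the glucuronosyltransferase median changed sign without WT 3 and the sulfotransferase median, 0.30 as reported, was 0.63 with limma-voom and 0.19 with DESeq2. The number of genes called in edgeR at an adjusted p of 0.05, 2 as reported, was 6 with no low-count filter, 283 with DESeq2, 0 with limma-voom and 0 to 151 with 1 mouse left out (151 without WT 2). The number of members called, 0 as reported, was 2 with DESeq2 and 0 to 2 with 1 mouse left out, the 2 being Gstp2 and Gsta4 without WT 2. The fit without WT 2 tested 52 members and 14635 genes. Members higher at an unadjusted p under 0.05 numbered 1 with DESeq2 (Sult2a1) and 0 to 5 with 1 mouse left out. Members lower at that p numbered 3 to 4. Counted in either direction, 15.4% of members had that p without WT 2, against 16.6% of all tested genes. Without Cd44 KO 3 the shares were 5.66% and 6.64%. Members with no overlap between genotypes numbered 3 to 9 lower (9 without Cd44 KO 1) and 2 to 9 higher (9 without WT 2) with 1 mouse left out, where fewer mice overlap less by construction. The share of all genes without overlap in those fits is not given here, so these counts are not read as a result about the members.

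With mouse number as a replicate block, 1 gene and 0 members were called, and 1 member (Ugt1a5) was higher at an unadjusted p under 0.05. The numbers pair nothing in these data: deviations of same-numbered mice correlated at −0.04, −0.06 and −0.003 across 14145 genes, none over 0.1.

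Signs near 0 were not stable. The log2 fold change of Ugt1a9 was 0.17 with the replicate block and 0.17 with limma-voom, and that of Mgst1 −0.00089 with a filter of 1 CPM in 3 libraries. With 1 mouse left out, log2 fold changes ran from −0.14 to 0.24 for Mgst1, −0.43 to 0.27 for Ugt1a9, −0.14 to 0.090 for Gstk1, −0.50 to 1.05 for Sult3a1, −0.26 to 1.02 for Sult1e1, −0.25 to 0.055 for Ugt1a6a, −0.38 to 0.083 for Ugt2a3, −0.41 to 0.25 for Ugt2b5 and −0.079 to 0.50 for Ugt1a1. In all, 21 of the 51 tested members changed sign in at least 1 such fit; the cause was not tested.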
